A study of Drosophila melanogaster with 6 samples.

Results

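The transcripts described here are those that the array names by a cDNA clone from cultured Schneider cells, a line first grown from fly embryos. In the naming of public fly clones, which is general knowledge, the prefix SD followed by 5 digits marks that library. The array carried 87 such probes for 67 clones. Of these, 64 probes for 51 clones were well above background on all 3 arrays of Top3b26 or of WT, out of 23013 probes that met this rule on the whole array. Fatp3, roX1 and roX2 were to be left out, but no SD clone carried those names. Only 9 of the 67 clones could be given a gene name, so the others could not be checked for this. The rule did not use the size of the difference between the genotypes, but a probe could enter through a single group. SD21514, SD07514 and SD17676 entered through WT alone, and SD04624 through Top3b26 alone.

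Top3b26 is an allele of the gene for Topoisomerase 3-beta, made by remobilizing a P-element in a w1118 background, and WT is the w1118 stock itself. Both groups were heads of adult flies, 3 independently prepared RNA samples each, hybridized to 1 one-colour array per sample. The mutant came as a gift and WT from a stock center, so allele and stock origin cannot be told apart, and the sources used here give no sexes. The comparison asks which head transcripts differ in level between the topoisomerase mutant and the stock it is set against.

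Topoisomerase 3-beta passes strands of DNA or RNA through one another, and in flies it works in a complex with the Tudor-domain protein TDRD3. Schneider cells have properties of embryonic blood cells, which engulf debris and secrete matrix. A clone from their library shows that a transcript was present in those cells, and does not limit it to them. Transcripts used in most cells, such as those for ribosomal proteins, are found in such a library together with those of blood cells.

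Gene names were found for 9 of the 67 clones through the synonyms of a RefSeq gene table (Release 6 assembly), and 6 of these clones have a probe among the 64. They are jim (SD14927), which encodes a zinc finger protein, CrebA (SD05937), a leucine zipper transcription factor that drives genes of the secretory pathway, kek1 (SD01674), a membrane protein with leucine-rich repeats that restrains the EGF receptor, mRpS16 (SD15809), a protein of the small subunit of the mitochondrial ribosome, and CG30428 (SD21514) and CG31125 (SD02419), for which no role is given here. The other 45 clones are known only by their clone name, so nothing can be said of their role.

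Arrays differed in brightness, with a median processed signal between 279 and 1604. Slide 1 held Top3b26 1, WT 1 and WT 2, and slide 2 held Top3b26 2, Top3b26 3 and WT 3. Levels below are log2 signals centered on each array's mean and brought to a common SD, so a level of 0 is the mean of an array. Marker lists of 45 genes for head, neuron, glia, fat body, blood cells, testis, ovary and male flies could not be used to check the tissue, because the names of 2 only (roX1 and roX2) could be matched to tested probes. The number of arrays limits the precision.

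Between Top3b26 and WT, 3 of the 64 probes passed limma's test, 1 higher and 2 lower in Top3b26. A probe was called where its Benjamini-Hochberg adjusted p over all tested probes did not exceed 0.05. Over the whole array 203 of 23013 probes (0.882%) were called, 39 of them (0.169%) higher and 164 (0.713%) lower. The call of all 3 was lost with the slide as a block and when Top3b26 1 or any 1 WT array was left out, when 12 to 14 of the 64 still had an unadjusted p under 0.05, against 5.90% to 8.05% of all tested probes. The main fit gave 15 of the 64, against 11.2% of all tested probes. In RNA of whole heads, fewer cells of a type and less RNA per cell cannot be told apart.

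SD10018 was the clone that was higher. Its level was 3.55, 3.67 and 3.67 on Top3b26 arrays 1 to 3, against 1.08, 1.30 and 0.86 on WT arrays 1 to 3. The groups were far apart, and the Top3b26 arrays were the closer together. The mean was 3.63 ± 0.07 in Top3b26 and 1.08 ± 0.22 in WT (SD, n = 3 each), a difference of 2.55 ± 0.21 (log2, SE), or 5.86-fold, with a limma adjusted p of 0.00986. The difference was 2.36 on slide 1 and 2.81 on slide 2, and 2.58 with the slide as a block, where the limma adjusted p was 0.0716. The probe had 2 spots on each array, which differed by between 0.03 and 0.15 (log2).

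SD27140 was lower in Top3b26. Its level was 1.65, 1.73 and 2.18 on the Top3b26 arrays, against 4.07, 4.08 and 4.02 on the WT arrays. The WT arrays were nearly equal, and Top3b26 3 was the nearest to them. The difference was -2.20 ± 0.22 (log2, SE), or 4.61-fold lower, with a limma adjusted p of 0.0176. It was -2.43 on slide 1 and -2.07 on slide 2, and the limma adjusted p was 0.0961 with the slide as a block. Scaling each array to a median difference of 0 also ended the call, with a difference of -2.02 and a limma adjusted p of 0.0511.

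The zinc finger gene jim (SD14927) was the second clone that was lower. Its level was 2.61, 2.79 and 2.75 on the Top3b26 arrays, against 4.48, 4.46 and 4.45 on the WT arrays. Both groups were tight, with SDs of 0.10 in Top3b26 and 0.02 in WT. The difference was -1.74 ± 0.18 (log2, SE), or 3.34-fold lower, with a limma adjusted p of 0.0192. It was -1.86 on slide 1 and -1.67 on slide 2. With the slide as a block the limma adjusted p was 0.114. Without the filter on dim probes, which adds probes to the test and to limma's pooled spread, it was 0.0564 with an SE of 0.22.

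**Figure D1:**
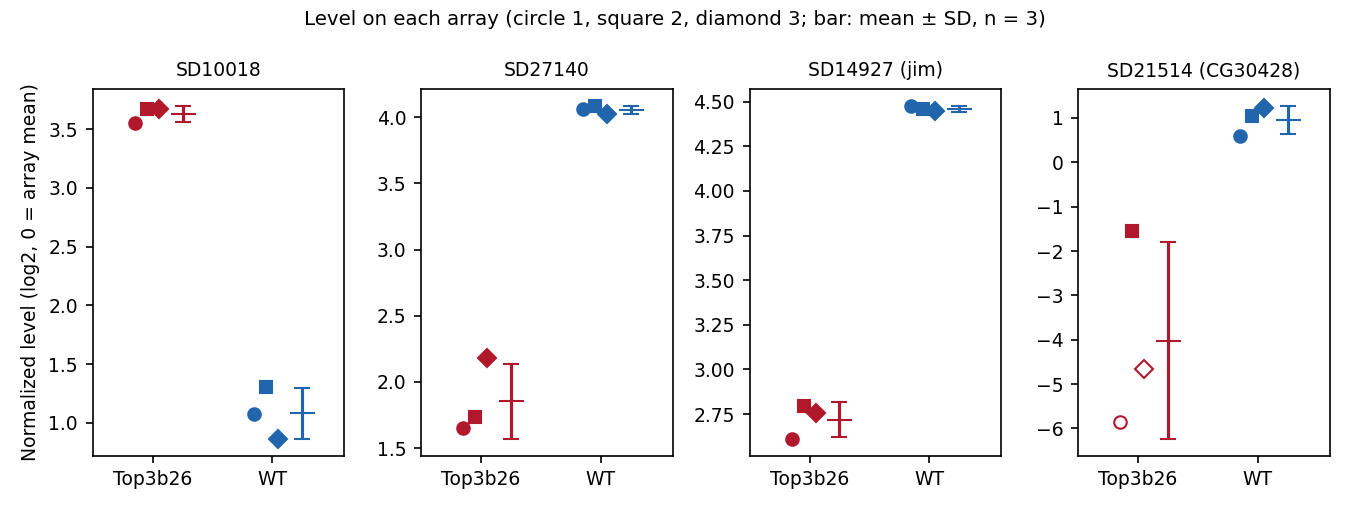
Normalized level (log2, 0 is the mean of an array) of 4 clones on each Top3b26 array (red) and WT array (blue), with the mean ± SD of each group (n = 3); each panel has its own vertical scale. SD10018 lies between 3.55 and 3.67 on the Top3b26 arrays and between 0.86 and 1.30 on the WT arrays, while SD27140, jim and CG30428 lie lower on every Top3b26 array than on any WT array; open symbols for CG30428 are arrays where it was not well above background.

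CG30428 (SD21514) had the largest difference in size among the 64 probes and was not called. Its level was -5.85, -1.55 and -4.66 on the Top3b26 arrays, against 0.60, 1.05 and 1.22 on the WT arrays. Its processed signal was 9.10, 72.1 and 35.7 on the Top3b26 arrays, against 516, 763 and 1870 on the WT arrays. Of the Top3b26 arrays, only array 2 measured it well above background, whereas all WT arrays did. The difference was -4.98 ± 1.09 (log2, SE) with a limma adjusted p of 0.147. With normexp background correction, which raises dim signals, followed by quantile normalization, the difference was -2.29 with a limma adjusted p of 0.0832. With quantile normalization alone it was -4.83, so its size depends on how signals near background are treated.

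Of the other clones with gene names, CrebA was also lower on every Top3b26 array, but was not called. Its level was 0.77, 1.23 and 0.79 on the Top3b26 arrays, against 1.84, 1.61 and 1.72 on the WT arrays, a difference of -0.79 ± 0.22 (log2, SE) with a limma adjusted p of 0.251. A further CrebA probe was not well above background on any array. CG31125 had levels of 1.80, 1.92 and 1.66 on the Top3b26 arrays and 1.99, 2.21 and 2.29 on the WT arrays, with no overlap, a difference of -0.37 ± 0.20 and a limma adjusted p of 0.595.

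The levels of the other 2 named genes overlapped between the groups. The receptor inhibitor kek1 had 4.44, 4.82 and 3.75 on the Top3b26 arrays and 4.46, 4.81 and 4.71 on the WT arrays, so that only Top3b26 3 stood below the rest. The ribosomal protein gene mRpS16 had 3.49, 3.95 and 3.38 on the Top3b26 arrays and 3.91, 3.78 and 3.87 on the WT arrays. The differences were -0.33 ± 0.32 for kek1 and -0.24 ± 0.23 for mRpS16 (log2, SE), with limma adjusted p of 0.786 and 0.777.

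Ranked by difference, the 64 probes ran from -4.98 to 2.55 (log2), with 34 above 0 and 30 below. The size was under 0.5 for 29 probes (45.3%), between 0.5 and 1 for 22, and over 1 for 13 (20.3%). Over all tested probes 67.9% had a size under 0.5 and 11.48% a size over 1. The median difference was 0.01, against -0.15 over all tested probes, which the scaling in part sets. With the arrays instead shifted to a median difference of 0, these medians were 0.20 and 0.03, and 39 of the 64 were above 0.

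**Figure D2:**
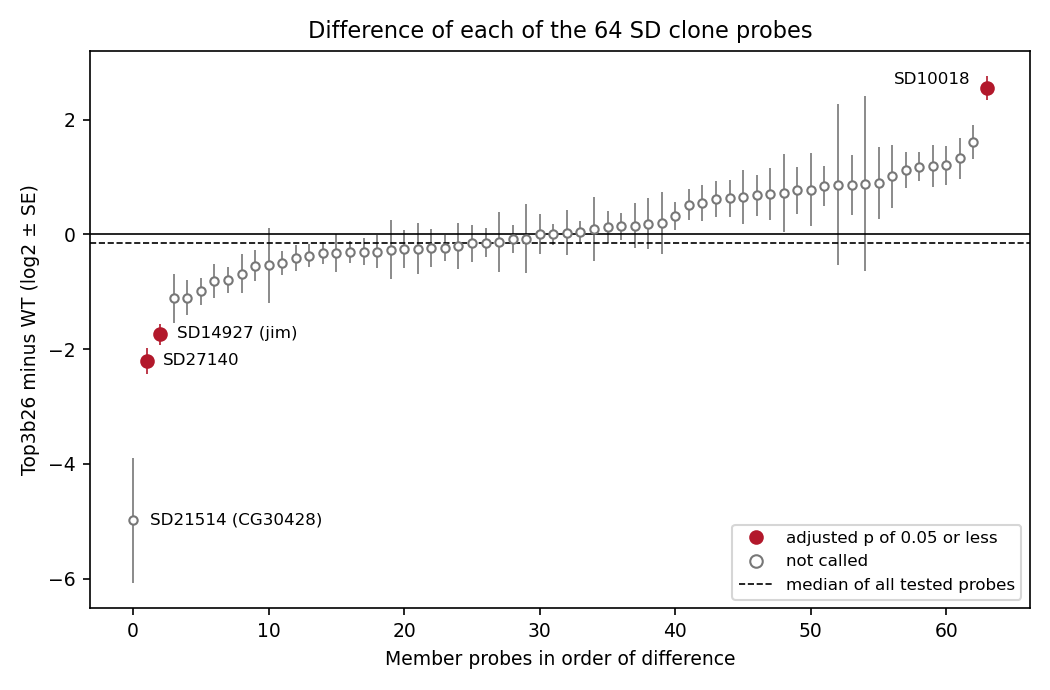
Difference between Top3b26 and WT (log2, mean of 3 arrays minus mean of 3 arrays, ± SE) for the 64 SD clone probes in order of size. Filled red points mark the 3 called probes, SD27140 and jim at the low end and SD10018 at the high end, and the dashed line marks the median of all tested probes (-0.15).

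At 21 of the 64 probes (32.8%) the ranges of Top3b26 and WT did not meet, which was so at 19.8% of all tested probes. All Top3b26 arrays were higher at 8 of them (4.86% of all tested probes) and lower at 13 (15% of all tested probes). These 8 probes came from 5 clones and the 13 from 13 clones. CG30428 and SD07514 are among the 13, and both met the detection rule through WT alone. The split depended on the scaling. It was 22 higher and 11 lower after the shift to a median difference of 0, where 23.1% of all tested probes did not overlap. It was 11 and 11 after quantile normalization, where 20.8% of all tested probes did not overlap.

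The study's methods set looser thresholds, a false discovery rate of 0.3 with a z-ratio or fold of 1.5. In the same limma fit 13 of the 64 probes met this false discovery rate and fold, against 6.07% of all tested probes. Of these, 7 were higher, from 4 clones (1.69% of all tested probes), and 6 were lower, from 6 clones (4.38% of all tested probes). The z-ratio and the study's further criteria, on detection, variance, its own test and mean signal, were not applied here, so these probes are not its list. The higher clones were SD10018, SD08734, SD07683 and SD01935. The lower clones were CG30428, which met the detection rule through WT alone, SD27140, jim, SD08605, SD03311 and CrebA. Of these, SD07683 was outside the naming rule and is described because it met the thresholds. Its level was 0.42, 0.70 and 1.05 on the Top3b26 arrays, against -0.27, -0.37 and -0.73 on the WT arrays, a difference of 1.18 ± 0.26 (log2, SE) with a limma adjusted p of 0.148.

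Several probes read the same clone in 9 cases, which made up 22 of the 64 probes. Probes that carry the same clone name were taken as repeat readings and not as independent transcripts. Whether they read the same target was not tested. The difference had the same sign in all probes of 7 clones, and opposite signs in 2.

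SD08734 had the most probes, and its 4 probes were all higher on every Top3b26 array than on any WT array. The probe with the largest difference had levels of 5.89, 5.91 and 5.27 on the Top3b26 arrays, against 3.72, 4.31 and 4.23 on the WT arrays. Top3b26 3 was the lowest of the Top3b26 arrays, and WT 1 the lowest of the WT arrays. Its difference was 1.61 ± 0.29 (log2, SE) with a limma adjusted p of 0.0970. Those of the other 3 probes were 1.12, 1.20 and 1.32, with limma adjusted p of 0.248, 0.255 and 0.226.

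No SD08734 probe was called, but after the shift to a median difference of 0 all 4 were, with differences from 1.30 to 1.79 and limma adjusted p from 0.0159 to 0.0470. The first probe was also called after the 75th percentile shift and after normexp correction, with limma adjusted p of 0.0422 and 0.0439. Within slides its difference was 1.88 on slide 1 and 1.36 on slide 2.

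The other sets of probes had smaller differences or overlap in some probes. The 3 probes of SD10530 differed by 0.54, 0.61 and 0.70 (log2), and the 2 of SD14423 by 0.52 and 0.62, both highest on Top3b26 2. The 2 probes of SD01935 differed by 1.19 and 0.68. The first was without overlap, at -1.73, -1.23 and -2.04 on the Top3b26 arrays and -2.24, -3.18 and -3.13 on the WT arrays, with a limma adjusted p of 0.299. None of these probes was called.

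SD06908 and SD02447 showed differences smaller than their SE. The 3 probes of SD06908 differed by -0.25, 0.00 and 0.19 (log2), with SEs of 0.45, 0.35 and 0.45. The middle one had levels of 6.08, 6.52 and 5.30 on the Top3b26 arrays, which lay on both sides of 5.91, 6.01 and 5.98 on the WT arrays. The 2 probes of SD02447 differed by -0.27 and -0.13, with an SE of 0.52 each.

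The 2 probes of SD03311 went in opposite directions. One probe had levels of -2.78, -2.32 and -2.86 on the Top3b26 arrays, against -1.82, -1.64 and -1.52 on the WT arrays, and was without overlap, at a difference of -0.996 ± 0.24 (log2, SE). The other had -0.87, -0.02 and -1.26 on the Top3b26 arrays, against -1.96, -1.38 and -1.11 on the WT arrays, a difference of 0.77 ± 0.41 with overlap. The limma adjusted p were 0.170 and 0.584. The clone name alone does not tell which of them reads which part or form of the transcript.

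**Figure D3:**
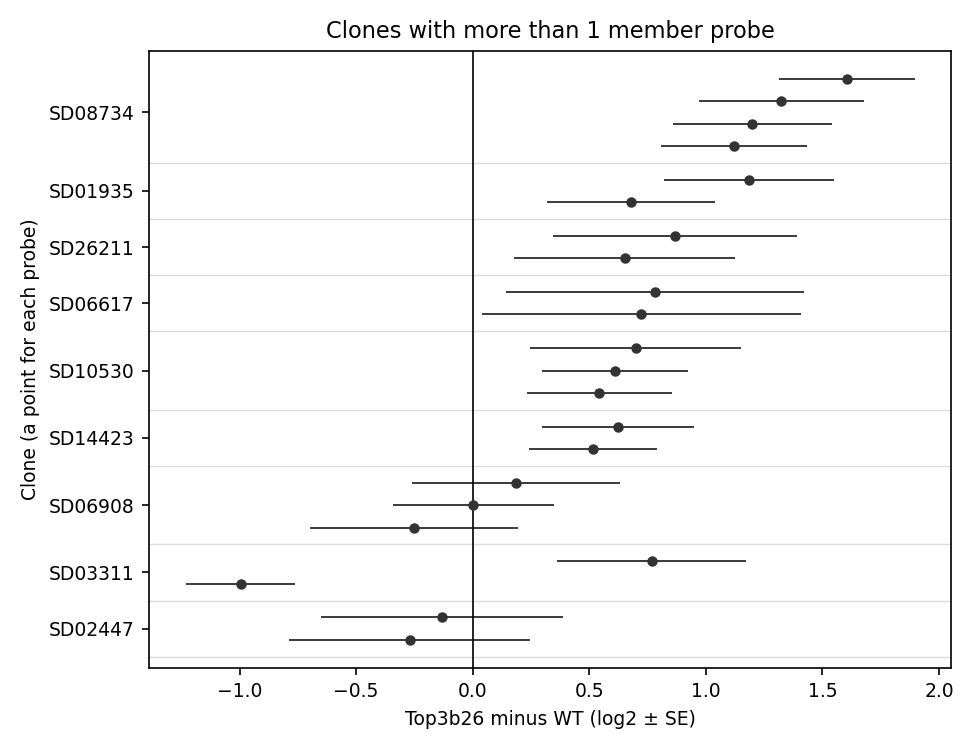
Difference between Top3b26 and WT (log2, ± SE, 3 arrays per group) for the 22 probes of the 9 clones with more than 1 probe, a point for each probe and the clones separated by grey lines. The 4 probes of SD08734 lie between 1.12 and 1.61, and the 2 of SD03311 lie on opposite sides of 0.

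A few clones stood out on 1 array and not by genotype. SD26211 was highest on Top3b26 1 by both of its probes. One probe had levels of 5.43, 4.03 and 3.54 on the Top3b26 arrays and 3.34, 3.24 and 3.81 on the WT arrays, and the other 3.93, 2.82 and 2.19 on the Top3b26 arrays and 2.19, 2.16 and 2.63 on the WT arrays. SD07644, chosen after its values were seen, had the same order, with 4.80, 3.33 and 2.91 on the Top3b26 arrays and 2.49, 2.35 and 3.18 on the WT arrays. Within slides the difference of SD07644 was 2.38 on slide 1, which held 1 Top3b26 array, and -0.06 on slide 2. For the probes of SD26211 it was 2.14 and 1.76 on slide 1, and -0.03 and -0.13 on slide 2. None of these was called, and the part of the slide or of the single preparation was not tested.

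Other clones were high or low on Top3b26 2. Both probes of SD06617 were highest there, at 0.85 and 0.81, where the other Top3b26 arrays lay between -1.53 and -1.35 and the WT arrays between -1.62 and -1.09. SD17676 was lowest there, where its signal was not well above background, so its SD of 3.05 over the Top3b26 arrays rests in part on that value. Its level was 0.95, -3.35 and 2.54 on the Top3b26 arrays, against 0.15, -1.33 and -1.33 on the WT arrays. SD02150, chosen after its values were seen, was also lowest on Top3b26 2 and highest on Top3b26 3, with 0.39, -0.58 and 1.92 on the Top3b26 arrays and -0.19, -0.51 and -0.25 on the WT arrays. These were the 2 clones that were lower on array 2 than on array 3 by over 1 (log2), and 19 of the 64 probes were higher there by over 1. Over all tested probes 12.9% were lower by over 1 and 36.0% higher.

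Over the 64 probes, 55 (85.9%) were higher on Top3b26 2 than on Top3b26 3, against 78.4% of all tested probes. After the shift to a median difference of 0 this was so at 32 of 64, against 51.6% of all tested probes. That shift sets each array's median deviation to 0, so a near even split over all tested probes follows from its construction. The direction between these arrays is thus set by the scaling and is no finding about them. The median SD over the Top3b26 arrays was 0.45 for the 64 probes and 0.54 for all tested probes, and over the WT arrays 0.24 and 0.23. The SD was larger in Top3b26 than in WT at 50 of the 64 probes (78.1%), against 88.8% of all tested probes.

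**Figure D4:**
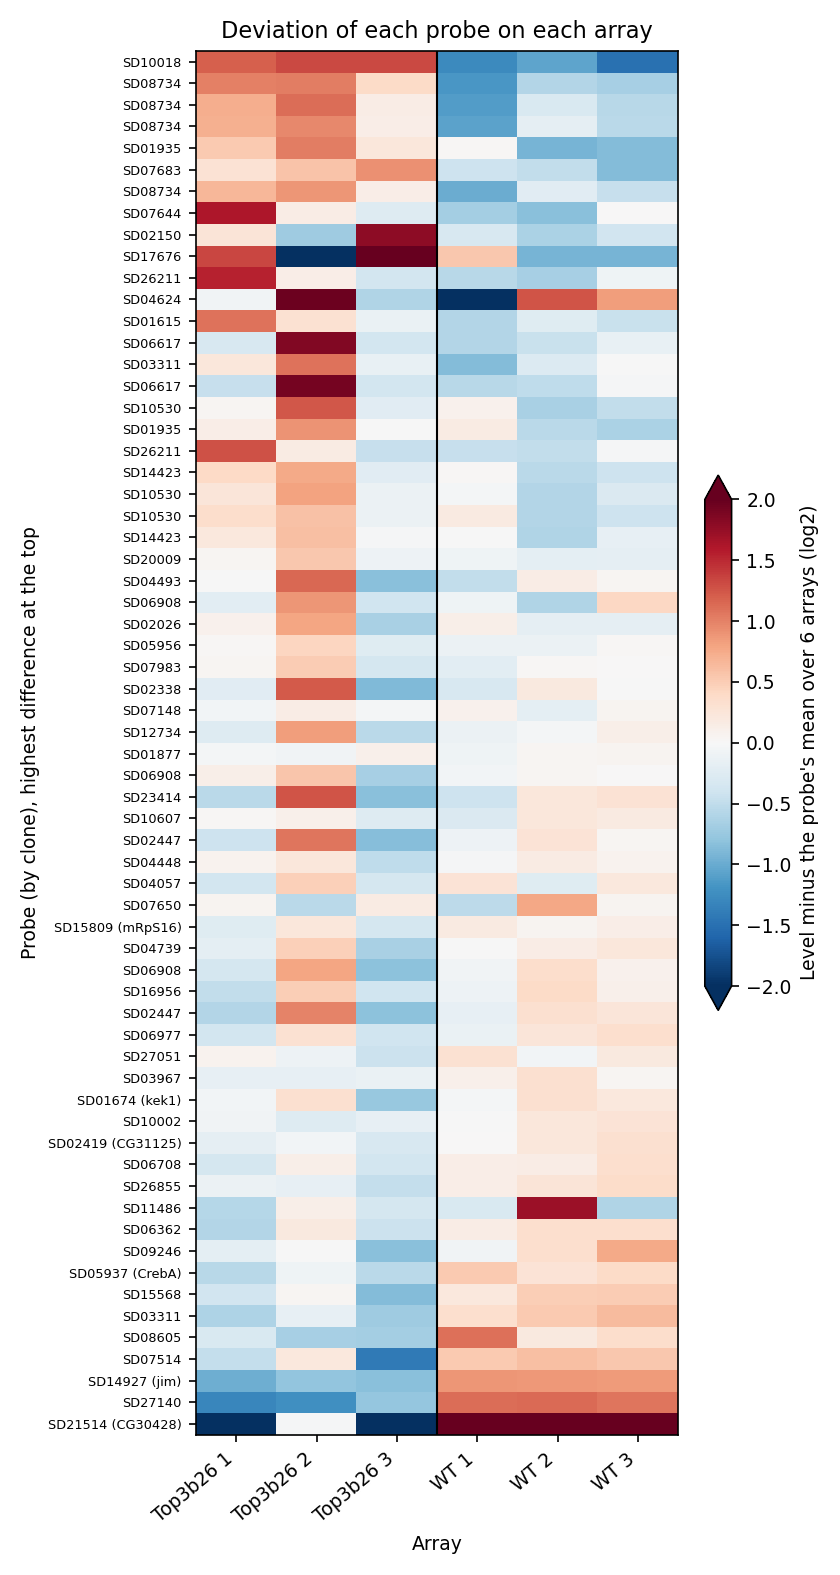
Level of each of the 64 SD clone probes on each array minus the mean of that probe over the 6 arrays (log2, red above and blue below, colour limits at -2 and 2), with the 3 Top3b26 arrays left of the 3 WT arrays and the probe with the highest difference at the top. SD10018 and the SD08734 probes at the top and jim, SD27140 and CG30428 at the bottom follow the genotype, while SD26211, SD07644 and SD06617 follow single Top3b26 arrays.

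At the other end, SD01877 and SD03967 had, with jim, the smallest spread within groups. SD01877 had levels of 2.67, 2.63 and 2.80 on the Top3b26 arrays and 2.61, 2.74 and 2.75 on the WT arrays, a difference of 0.00 ± 0.18 (log2, SE). SD03967 had 5.07, 5.07 and 5.11 on the Top3b26 arrays, against 5.34, 5.57 and 5.28 on the WT arrays. Its groups did not overlap, with a difference of -0.31 ± 0.19 that was not called (limma adjusted p of 0.640). SD08605 was also among the 13 probes that were lower without overlap (limma adjusted p of 0.248). Its level was 1.90, 1.54 and 1.54 on the Top3b26 arrays and 3.32, 2.42 and 2.56 on the WT arrays.

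In replicate spots on the same array, the 6 of the 64 probes that were spotted more than once differed by a median of 0.05 and at most 0.19 (log2) over 36 comparisons. The 28 probes not chosen by the naming rule had differences from -0.81 to 1.18 and limma adjusted p from 0.148 to 0.991.

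Of the 64 probes, 60 were well above background on all 6 arrays, 3 on 5 arrays and CG30428 on 4. Just inside the detection rule, SD07514 was measured on 2 Top3b26 arrays and all WT arrays, with levels of -3.25, -2.57 and -4.19 on the Top3b26 arrays and -2.26, -2.17 and -2.24 on the WT arrays (difference of -1.11, limma adjusted p of 0.418). SD04624 was measured on all Top3b26 arrays and 2 WT arrays. Its level was -2.72, -0.68 and -3.25 on the Top3b26 arrays, against -6.03, -1.39 and -1.82 on the WT arrays. Just outside, SD16627 was measured on 2 arrays of each group, with levels of -2.51, -0.53 and -5.22 on the Top3b26 arrays and -3.24, -3.28 and -3.87 on the WT arrays.

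The other 23 SD probes were below the rule, 13 of them on every array. Those 13 include the probes for Mef2, the muscle transcription factor, and bchs, a protein of autophagy. The probe for shn, a zinc finger protein of the Dpp pathway, was measured on 2 arrays of each group.

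Other clone libraries on the array give a scale for these values. The share of probes that met the detection rule was 73.6% for SD clones, 81.5% of 303 probes for adult head clones (prefixes GH, HL and RH), 81.7% of 235 for embryo clones (LD and RE) and 71.6% over the whole array. The median difference was 0.01 for the SD clones, -0.09 for the 247 tested head clone probes and -0.16 for the 192 tested embryo clone probes. The share called was 4.69% for the SD clones (3 probes), 2.83% for the head clones (7 probes) and 1.56% for the embryo clones (3 probes). Over all tested probes it was 0.882%. The share without overlap was 32.8%, 15.4% and 17.7% in the same order, against 19.8% of all tested probes. These shares rest on few probes, and differences between libraries were not tested.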

How the data were processed

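The members, gene lists and tests were chosen with earlier results of these data known. Per the file headers, the deposited intensity values are processed Cy3 signals from Feature Extraction 11.5.1.1, with background subtracted and spatial trends corrected within each array. The authors also deposited score values, z-scores of log signal, which matched recomputed values within 0.00502. Of 45019 spots per file, 43602 were not controls.

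Log2 signals were turned into z-scores over each array's non-control spots and rescaled by the arrays' mean SD (3.89). Outlier spots were left out, 0 spots were saturated, and spots of a probe were averaged. A probe was well above background where most of its spots were. Of 32162 probes, 23013 were tested with R 4.3.3 and limma 3.58.1 (lmFit, eBayes, no covariate, Benjamini-Hochberg over all tested probes), after checks on simulated data.

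Named clones were those called, the 5 highest and 5 lowest, the 3 brightest, the 3 most and 3 least variable, those with several probes and those with gene names. The p-values measure the spread between RNA preparations.

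The alternatives were the 75th percentile shift, quantile normalization, a shift to a median difference of 0 and normexp (offset 50) followed by quantile normalization. Others were no filter or a filter on all 6 arrays, the deposited table, slide and replicate blocks, and leaving out each array. The methods' thresholds and a plain 2-group test were also used, and the counts from that test are not those of the study's own test. Normexp was run on median signals, chosen after seeing that the files have no mean signal column.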

Additional observations from a re-analysis of the deposited data

Results flagged for a closer look

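Among the 23 SD probes outside the detection rule, 3 were well above background on Top3b26 arrays and on no WT array. SD25933 was so on 2 Top3b26 arrays, with processed signals of 44.9, 21.4 and 63.9 on the Top3b26 arrays and 16.0, 23.4 and 41.1 on the WT arrays. SD03144, by 1 of its 2 probes, was so on 1 Top3b26 array, with 5.47, 49.2 and 7.64 on the Top3b26 arrays and 6.27, 22.0 and 12.5 on the WT arrays. SD23414, whose other probe is among the 64, was so on 1 Top3b26 array, with 10.2, 29.5 and 27.1 on the Top3b26 arrays and 7.82, 14.4 and 51.6 on the WT arrays. All of these signals are dim, and the ranges of both groups overlapped in these unscaled signals. On normalized levels, SD03144 and SD23414 also overlapped, but SD25933 did not. Its level was -3.52, -3.26 and -3.82 on the Top3b26 arrays and -4.45, -3.94 and -4.31 on the WT arrays. Of all tested probes, 19.8% were without overlap.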

How the results depend on the processing

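The median difference of the 64 probes moved by less than the SD of their median level over the 6 arrays (0.27) under every alternative that gives it. That SD includes Top3b26 2, where the median level was highest (2.81). Within-group spread moved by under 1.5 times, and has no value under the slide and replicate blocks. When 1 array was left out, medians ran from -0.24 (without Top3b26 2, 25 of the 64 above 0) to 0.24 (without Top3b26 3, 39 above 0). The count of 3 called probes (203 over the whole array) was 6 after the shift to a median difference of 0 (498 over the whole array). It was 13 at the methods' thresholds (1398 over the whole array). By a plain 2-group test without adjustment it was 18 (2840 over the whole array). With limma it was 0 under the slide block and 0 under the replicate block, with 14 at an unadjusted p under 0.05 in each (7.35% and 8.78% of all tested probes), and 0 to 4 when 1 array was left out. It was 0 without Top3b26 1 or any WT array, with 12 at an unadjusted p under 0.05 in each (5.90% to 8.05% of all tested probes). It was 4 without Top3b26 2 (498 over the whole array), where 25 of the 64 had an unadjusted limma p under 0.05. Over all tested probes 32.1% had such a p there. The added probe there is CG30428, whose remaining Top3b26 arrays are not above background, so that call is not used.

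Over the whole array, the 203 calls (19.2% higher) were 355 after the 75th percentile shift, 498 (36.9% higher) after the shift to a median difference of 0, 130 with normexp, 123 with no filter, 44 under the slide block and 13 under the replicate block. They were 2840 by the plain 2-group test without adjustment, 87 with it, 1398 at the methods' thresholds, and 17 (without WT 2) to 498 (without Top3b26 2) when 1 array was left out. Leaving out any of the 6 arrays moved this count by over 1.5 times. Deviations of same-numbered arrays correlated across probes at 0.565, 0.591 and -0.371. Correlations of differently numbered arrays are not given here, so these values do not settle whether the replicate numbers pair the arrays.

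The 10 probes that were called or had the largest differences did not change sign under any alternative run. They were chosen for their differences on these arrays, so this is no independent support. The cause of the changes was not tested. Fewer arrays and added blocks leave fewer degrees of freedom, and the part of this in the changes was not tested. For dim probes such as CG30428, signal over background limits the size of a fold.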
